A study of Drosophila melanogaster with 3 samples.

Results

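Sites bound by the MCM2-7 complex in the arm sequence nearest the centromeres were described on 4 chromosome arms of Drosophila melanogaster. Members were chosen by position alone: a site of the list made from both replicates belonged when its centre lay above 21.0 Mb on 2L, above 22.5 Mb on 3L, above 20.4 Mb on X, or at or below 2.0 Mb on 3R. The rule found 229 of the 5726 sites in that list, of which 56 were on 2L, 27 on 3L, 95 on 3R and 51 on X. Within the same limits lay 413 of the 9668 replicate 1 peaks and 344 of the 8447 replicate 2 peaks. The 4 windows together spanned 8.05 Mb, and the remainder of the same arms, with 4293 sites, served as their reference. Distances were counted from the centromere end of the listed sequence, which on 2L, 3L and X is the highest peak end in any list and on 3R is position 1, so they leave out whatever lies between that end and the centromere itself. Positions follow FlyBase release 5.1.

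S2-DRSC is a male Drosophila cell line derived from late-stage embryos, and it was grown as asynchronous cultures. Cross-linked chromatin was precipitated with a pan-MCM2-7 mouse monoclonal antibody, whose antigen is listed as the Walker B motif of the complex, in 2 samples called replicate 1 and replicate 2. The third sample was input DNA, and no list of its peaks was used. The samples carry different extraction numbers, but nothing in the labels names separate cultures, so differences between replicates may be technical.

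MCM2-7 is the hexameric replicative helicase. It is loaded onto DNA at replication origins during G1 as part of licensing, usually at more places than fire in a given S phase, and is activated when replication starts. Chromatin near Drosophila centromeres grades into pericentric heterochromatin, which is rich in repeats and transposon remnants, poor in genes and generally late replicating. Gene content, sequence, repeat content and replication timing of the windows were not analysed here.

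Each value below is a peak position, width or score as the authors listed it, and sequencing depth is unknown. The list made from both replicates is called the shared list, because each of its sites joins overlapping peaks of both samples. Its values are therefore not independent of the replicate lists. There was 1 group of immunoprecipitations, so no test between groups was possible, and peaks and bins are not replicates. The 95% intervals are exact Poisson intervals for counts and exact binomial (Clopper-Pearson) intervals for shares. They cover counting error only and are too narrow where peaks cluster.

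MCM sites were sparser near the centromere on 2L, 3L and X, and near the arm's usual density on 3R. On 2L the window held 28.0 shared sites per Mb (interval 21.1 to 36.3) against 45.7 in the remainder of the arm. On 3L it held 13.3 per Mb (8.76 to 19.3) against 46.8. On X it held 25.3 per Mb (18.8 to 33.3) against 48.9. These 3 intervals lay wholly below the arm's own remainder, and 3L had the lowest density of the 4 windows. On 3R the window held 47.5 per Mb (38.4 to 58.1), an interval that covers the 49.5 per Mb of the remainder. Pooled over the 4 arms, the density was 28.4 per Mb (24.9 to 32.4) against 47.8 (46.4 to 49.3), a ratio of 0.595.

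Each replicate list gave the same order of remainder over window on 2L, 3L and X. In replicate 1 the windows held 55.9, 24.1 and 46.6 peaks per Mb on 2L, 3L and X, and the remainders 76.0, 77.7 and 83.8. In replicate 2 the windows held 37.4, 31.0 and 39.2 per Mb, and the remainders 58.1, 66.5 and 77.6. The replicates differed most on 3L, where the ratio of window to remainder was 0.310 in replicate 1 and 0.466 in replicate 2. On 3R the ratio was 0.992 in replicate 1 and 0.938 in replicate 2. Over the 4 arms the ratio was 0.647 in replicate 1 and 0.634 in replicate 2, or 0.641 ± 0.00967 (SD, n = 2). On single arms the replicates differed in opposite directions and by more, with SDs of 0.065 on 2L and 0.110 on 3L. Pooling 2L, 3L and X without 3R, a grouping chosen after the values were seen, lowered the ratio to 0.470 in the shared list and to 0.533 in each replicate.

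**Figure D1:**
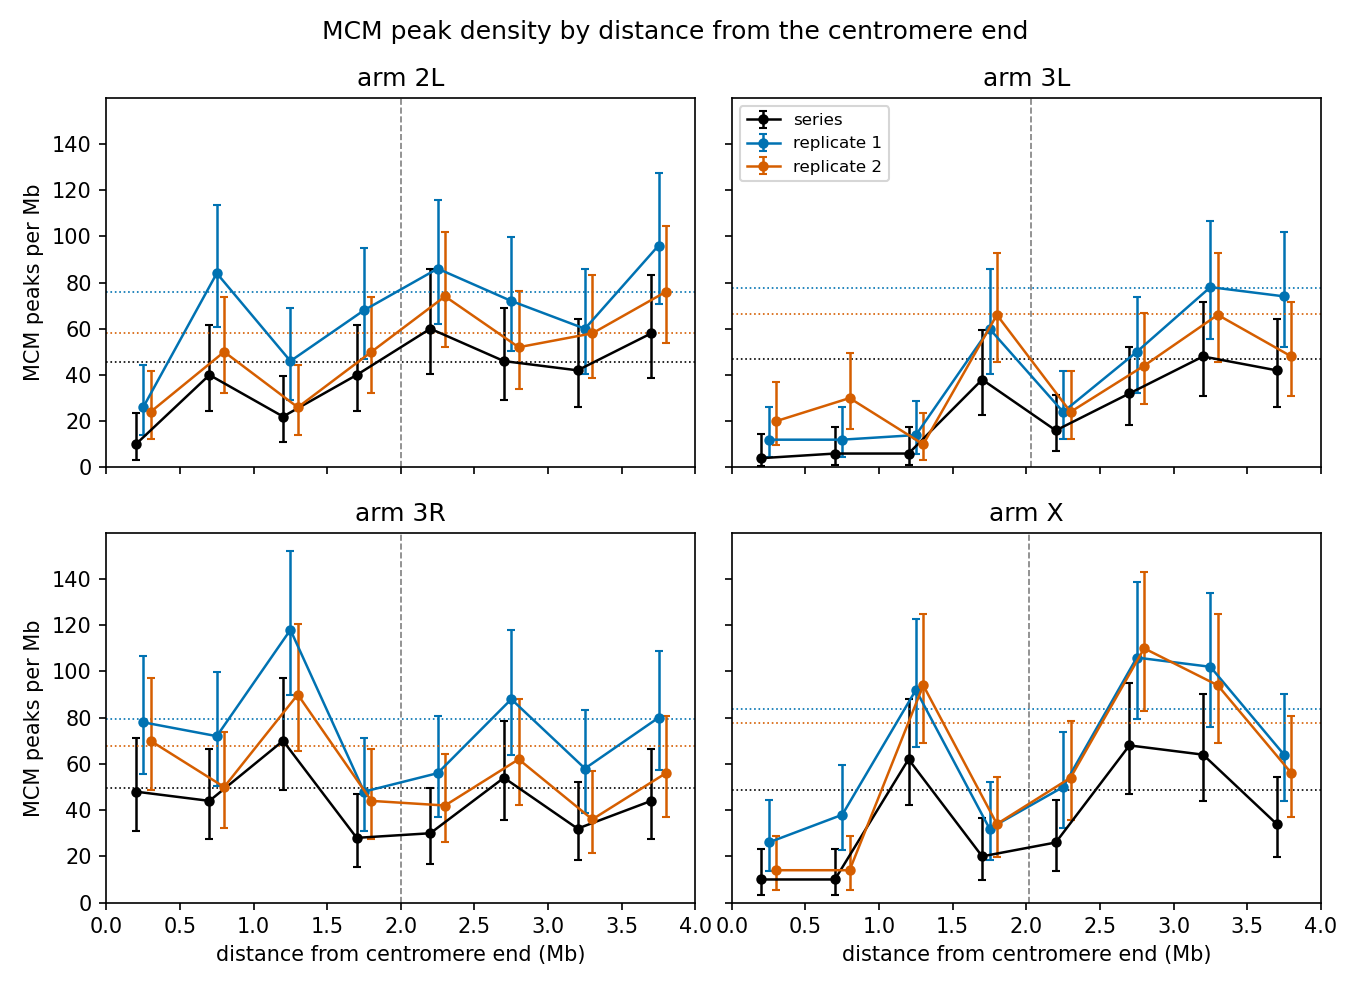
MCM peaks per Mb (y axis) in 500 kb bins by distance from the centromere end (x axis, Mb) for each arm, in the shared list (labelled series) and both replicates. Bars are exact 95% Poisson intervals, dashed lines mark the limit of each window and dotted lines the density of the arm's remainder; the first bin lies below all dotted lines on 2L, 3L and X, and near them on 3R.

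The plot of density by distance shows that the loss was not an even slope, and that it took a different form on each arm. Counts in successive 500 kb bins from the centromere end were 5, 20, 11 and 20 shared sites on 2L. They were 2, 3, 3 and 19 on 3L, where 3 neighbouring bins were nearly empty and the fourth held most of the members. They were 5, 5, 31 and 10 on X, where the 1.0 to 1.5 Mb bin held more than the other 3 bins together. On 3R they were 24, 22, 35 and 14, with the lowest count farthest from the centromere. On no arm did the count rise evenly from bin to bin.

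The replicate lists had the same high and low bins with few exceptions. On 2L the counts were 13, 42, 23 and 34 in replicate 1 and 12, 25, 13 and 25 in replicate 2. On 3R they were 39, 36, 59 and 24 in replicate 1 and 35, 25, 45 and 22 in replicate 2. Both replicates thus placed the low bins of 2L nearest the end and at 1.0 to 1.5 Mb, and the high bin of 3R at 1.0 to 1.5 Mb. On X the counts were 13, 19, 46 and 16 in replicate 1 and 7, 7, 47 and 17 in replicate 2. On 3L they were 6, 6, 7 and 30 in replicate 1 and 10, 15, 5 and 33 in replicate 2. The 3L arm was the exception, since replicate 2 had more peaks than replicate 1 in both bins of the inner 1 Mb, although its whole list is the shorter one.

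Splitting each window at 1 Mb, a division chosen after the values were seen, separated the arms further. On 3L the inner 1 Mb held 5 shared sites (interval 1.62 to 11.7) and the next 1 Mb held 22 (13.8 to 33.3). On X these counts were 10 (4.80 to 18.4) and 41 (29.4 to 55.6). The intervals of inner and outer counts did not overlap on these 2 arms. They overlapped on 2L, with 25 and 31 sites, and on 3R, with 46 and 49. In replicate 1 the intervals were again apart on 3L, with 12 and 37 peaks, and on X, with 32 and 62. In replicate 2 they were apart on X, with 14 and 64 peaks. On 3L they overlapped in replicate 2, with 25 (16.2 to 36.9) and 38 (26.9 to 52.2), so the separation on 3L was not shared by both replicates.

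Pooled over the 4 arms, the density of shared sites was 18.0 per Mb in the innermost 500 kb (interval 12.6 to 24.9). It was 25, 40 and 31.5 per Mb in the next 3 bins. Beyond the windows it was 33.0 per Mb from 2.0 to 2.5 Mb and 50 from 2.5 to 3.0 Mb. Of the shared-list bins to 4.0 Mb, only that from 2.5 to 3.0 Mb was above the 47.8 per Mb of the remainder. The bins after it held 46.5 and 44.5 per Mb. Inside the windows, the interval of the bin from 1.0 to 1.5 Mb (31.7 to 49.8) already covered 47.8. The innermost bin was also the lowest of these bins in both replicates, with 35.5 per Mb in replicate 1 and 32.0 in replicate 2. The ratio of the innermost bin to the bin from 1.5 to 2.0 Mb was 0.571 in the shared list, 0.683 in replicate 1 and 0.660 in replicate 2. With bins of 250 kb the ratio in the shared list was 1.08, so its direction depends on the bin width. With bins of 500 kb and without 3R it was 0.245, and the 250 kb ratio without 3R was not computed.

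Set against other windows of 2 Mb on the same arm, the centromere window was the emptiest on 3 of 4 arms. On 2L it held 56 sites, and the next lowest of its 11 windows held 61. On 3L it held 27, with 64 in the next lowest of 12 windows. On X it held 51, with 73 in the next lowest of 11 windows. On 3R, 5 of the 13 windows held fewer than its 95 sites. Both replicates also had the centromere window lowest on 3L and X. On 2L it was lowest in replicate 2, whereas 2 windows were lower in replicate 1.

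Long empty stretches made up most of the X and 3L windows. Stretches over 100 kb without a shared site, counted between members, took up 76.0% of the X window, 70.4% of the 3L window, 47.8% of the 2L window and 22.8% of the 3R window. In the remainder of these arms they took up 33.8% of X, 26.3% of 3L, 35.6% of 2L and 30.1% of 3R. X, 3L and 2L thus had more of their window in empty stretches than of their remainder, and 3R had less. Replicate 1 gave 41.0% on X, 47.4% on 3L, 21.3% on 2L and 7.25% on 3R. Replicate 2 gave 69.8%, 52.1%, 42.0% and 14.3% in the same order. The order of the 4 arms differed between lists only in X and 3L changing places in replicate 1. For 2L in replicate 1, the share was close to that of its remainder.

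**Figure D2:**
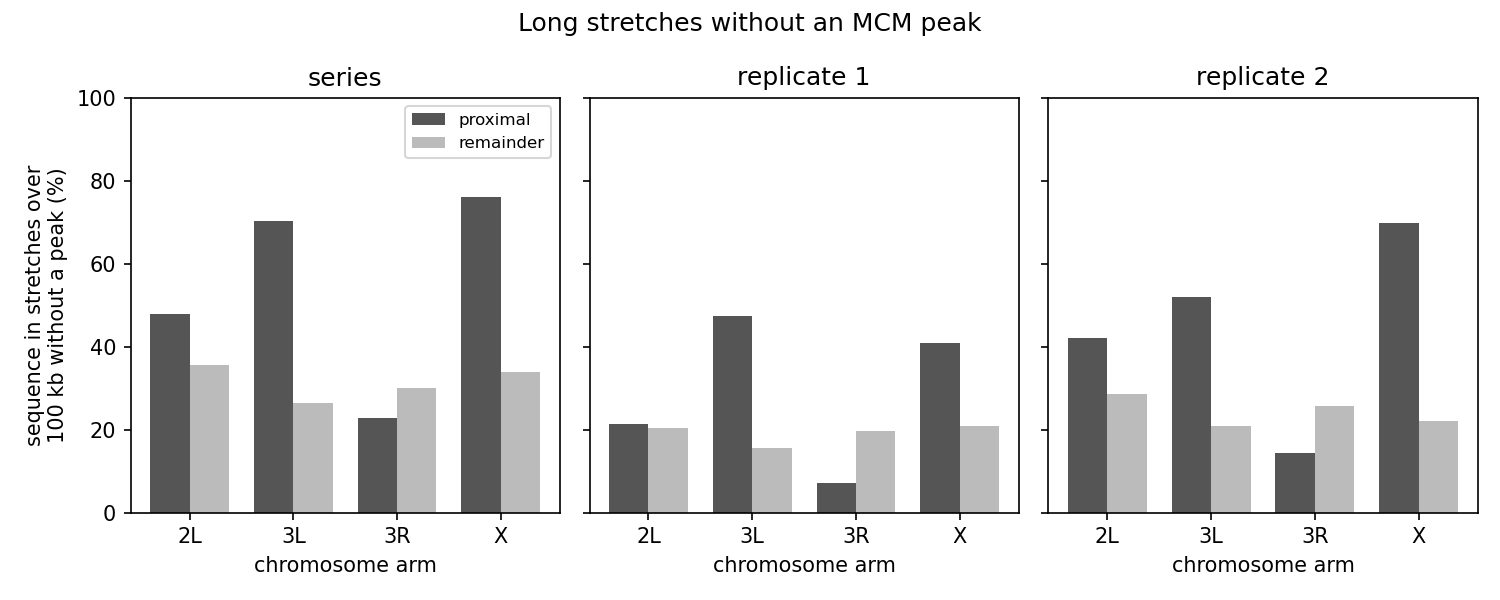
Share of sequence (y axis, %) in stretches over 100 kb between neighbouring peaks, for the 4 windows (dark) and the remainder of each arm (light), in the shared list (labelled series) and both replicates. The dark bars of 3L and X are the tallest in each panel, and the dark bar of 3R is the lowest.

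The 2 longest empty stretches of each window differed in how empty the replicate lists were there. On X the longest ran for 589 kb, from 21245385 to 21834807, and held 6 peaks found in replicate 1 alone and 2 in replicate 2 alone. The other X stretch, 20631757 to 20898891, spanned 267 kb and held 2 and 3. On 3L, 24021622 to 24529170 spanned 508 kb with 4 replicate 1 peaks and 9 replicate 2 peaks. The adjoining stretch, 23573982 to 24021373, spanned 447 kb with 3 and 12, and a lone shared site parts them. These 3L stretches are where replicate 2 listed peaks that replicate 1 did not. On 2L, 21344732 to 21573327 spanned 229 kb with 1 replicate 1 peak, and 21899766 to 22121111 spanned 221 kb with 5. Replicate 2 had none in either of these 2L stretches. On 3R, 304582 to 475002 spanned 170.4 kb with 3 and 2 peaks, and 1688261 to 1833167 spanned 145 kb with none in either list.

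Pooled over the 4 arms, typical spacing was wider in the windows. Taken singly, 2L, 3L and 3R went the same way, while X went the other way in the shared list and in replicate 2. The median distance between consecutive centres was 8.96 kb in the windows and 7.29 kb in the remainder of the arms. It was 4.82 against 4.12 kb in replicate 1 and 5.96 against 4.13 kb in replicate 2. Without 3R, the window and remainder medians were 5.67 and 7.41 kb in the shared list, 4.44 and 4.11 kb in replicate 1 and 3.94 and 4.14 kb in replicate 2, so the order turned in the shared list and in replicate 2. By arm in the shared list, the window and remainder medians were 9.16 and 7.83 kb on 2L, 12.7 and 8.10 kb on 3L and 10.8 and 6.99 kb on 3R. On X the order turned, with 4.55 kb in the window and 6.47 kb in the remainder. In replicate 1 the X medians were 3.65 and 3.58 kb, so the order did not turn there, and in replicate 2 they were 2.35 and 3.37 kb. On 2L they were 4.429 and 4.395 kb in replicate 1, which is nearly equal, and 7.50 and 5.46 kb in replicate 2. On 3L they were 10.9 and 4.42 kb in replicate 1 and 7.17 and 3.61 kb in replicate 2. On 3R they were 5.71 and 4.145 kb in replicate 1 and 8.36 and 4.12 kb in replicate 2. Of the 229 members, 60 (26.2%) had another shared site within 1 kb and 33 (14.4%) had none within 20 kb. These shares were not computed for the remainder, so they do not show whether members differ from other sites.

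Most X members lay in 2 dense groups of sites. Runs were taken as at least 5 sites with neighbouring centres at most 10 kb apart, a definition chosen after the values were seen. The first run, MCM_5676 to MCM_5691 at X 20898892 to 20944551, held 16 members in 45.7 kb. The second, MCM_5701 to MCM_5712 at X 21210602 to 21245384, held 12 members in 34.8 kb. Together they held 28 of the 51 X members (54.9%) in 80.4 kb, or 3.99% of the window. In the remainder of X, 37.6% of the sites lay in 49 runs of up to 21 sites, which is 2.40 runs per Mb against 0.992 in the window. In replicate 1 the share of X peaks in runs was 59.6% in the window and 62.9% in the remainder, and in replicate 2 it was 65.8% and 61.2%. Dense runs were thus not particular to the window. Density was 348 sites per Mb within the runs and 11.9 per Mb in the rest of the X window, a contrast that the definition of runs builds in. Density, width and score of the runs in the remainder of X were not computed. The second run borders the 589 kb empty stretch, and the first borders the 267 kb one.

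Each shared site joins peaks of both samples, so both runs had to appear in each replicate list, and their presence there is not separate support. The first run's span held 19 replicate 1 peaks and 31 replicate 2 peaks, and the second's held 14 and 13. In the first span, 14 of the 31 replicate 2 peaks overlapped no replicate 1 peak, against 3 of the 19 replicate 1 peaks without a match in replicate 2. In the shared list 3R had 2 runs of 5 members each, MCM_3270 to MCM_3274 and MCM_3297 to MCM_3301, and 2L and 3L had none. In replicate 1 the windows of 2L and 3R also had many runs, 11 with 59.8% of the 2L peaks and 13 with 55.7% of the 3R peaks, and X had 5 with 59.6%. Over the 4 windows 16.6% of shared sites lay in runs, against 33.8% in the remainder. The replicate 1 list, which is longer, had 53.8% of window peaks and 57.7% of other peaks in runs. For replicate 2 the shares were 30.2% and 51.8%.

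**Figure D3:**
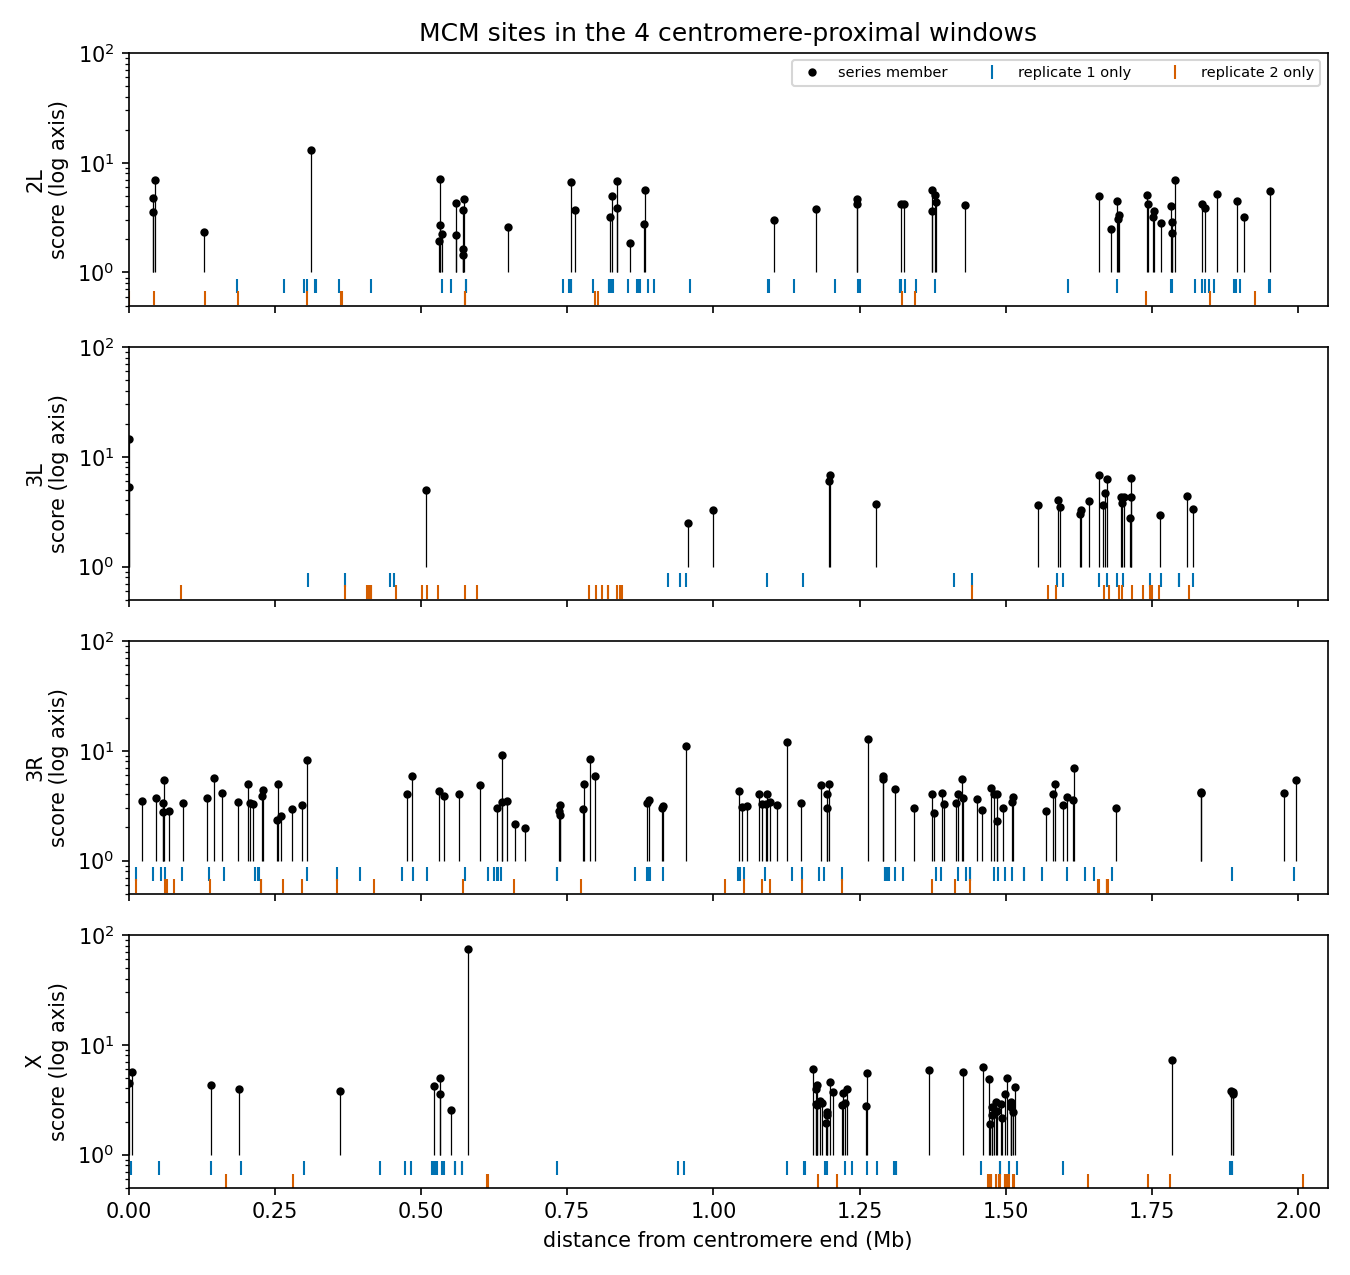
Each member of the shared list as a line topped by a point at its distance from the centromere end (x axis, Mb) and its score (y axis, log scale), with peaks found in replicate 1 or replicate 2 alone as ticks below. The 2 dense runs on X stand at 1170.2 to 1205 kb and at 1471 to 1516 kb, long empty stretches part the members on 3L and X, and members on 3R are spread over the window.

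Members were slightly wider than other shared sites, but the replicates did not share this difference. The median width was 237 bp in the windows (interquartile range 161 to 375 bp) and 205 bp in the remainder (141 to 328 bp). In replicate 1 the medians were 145 and 134 bp, and in replicate 2 they were 92 and 97 bp, so the difference changed sign between the replicates. By arm the shared medians of window and remainder were 236.5 and 209.5 bp on 2L, 242 and 197 bp on 3L, 199 and 205 bp on 3R and 282 and 213 bp on X. In replicate 1 the window median minus that of the remainder was -15 bp on 2L, 22 bp on 3L, 3.5 bp on 3R and 33 bp on X. In replicate 2 these differences were -7, -39, -6 and 14 bp. Only on X was the window median the wider one in all 3 lists. Within X, members of the 2 runs were the wider ones (median 326 bp), and the other X members had a median of 215 bp. A shared site spans the joined peaks of both replicates, so its width also reflects how far those peaks were offset.

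Width had at most a weak relation to distance from the centromere end, and its sign differed between arms. Spearman's rho between width and distance in the shared list was 0.31 on 3L (n = 27), 0.08 on 2L (n = 56), 0.09 on X (n = 51) and -0.15 on 3R (n = 95). In replicate 1 it was 0.28 on 3L, 0.15 on 2L, 0.26 on X and -0.15 on 3R. In replicate 2 it was 0.30 on 3L, 0.21 on 2L, -0.02 on X and -0.17 on 3R. The values on 3L and 3R were thus alike in all 3 lists, while that on X was not. These are descriptions across peaks of shared libraries and neighbouring sequence.

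The score per peak, the authors' own value without a named unit, hardly differed between members and other sites. The median was 3.76 in the windows (interquartile range 3.01 to 4.63) and 3.80 in the remainder (3.06 to 4.73). In replicate 1 the medians were 3.51 and 3.54, and in replicate 2 they were 3.58 and 3.62. The pooled differences were therefore small beside the spread among peaks in every list. The top quartile of the shared list's scores held 24.5% of members and 24.5% of the remaining sites. X was the arm with the lowest window median in the shared list and in replicate 2, but not in replicate 1. In the shared list 23 of 51 X members (45.1%, interval 31.1 to 59.7) were in the bottom quartile, against 28.2% of the remaining X sites. In replicate 1 the lowest window was that of 2L, with a median of 3.17 against 3.64 in its remainder. The X medians there were 3.48 and 3.53, and in replicate 2 they were 3.08 and 3.55. The adjacent X window of the same length scored lower still, with a median of 3.17 against 3.57 in the centromere window in the shared list, 3.16 against 3.48 in replicate 1 and 2.97 against 3.08 in replicate 2. The members of the 2 X runs had a median score of 2.90, and the other X members 3.92.

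Score was likewise not ordered by distance in the shared list. Spearman's rho between score and distance was 0.11 on 2L, -0.15 on 3L, 0.09 on 3R and -0.22 on X. In replicate 1 it was 0.37 on 2L, 0.17 on 3L, 0.07 on 3R and -0.13 on X. In replicate 2 it was 0.20 on 2L, 0.25 on 3L, 0.02 on 3R and -0.15 on X. Only the 3L value changed sign between the shared list and the replicates. On 2L in replicate 1, the median score was 2.00 in the innermost 500 kb and 3.55 from 1.5 to 2.0 Mb, whereas replicate 2 had 3.34 and 3.87.

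**Figure D4:**
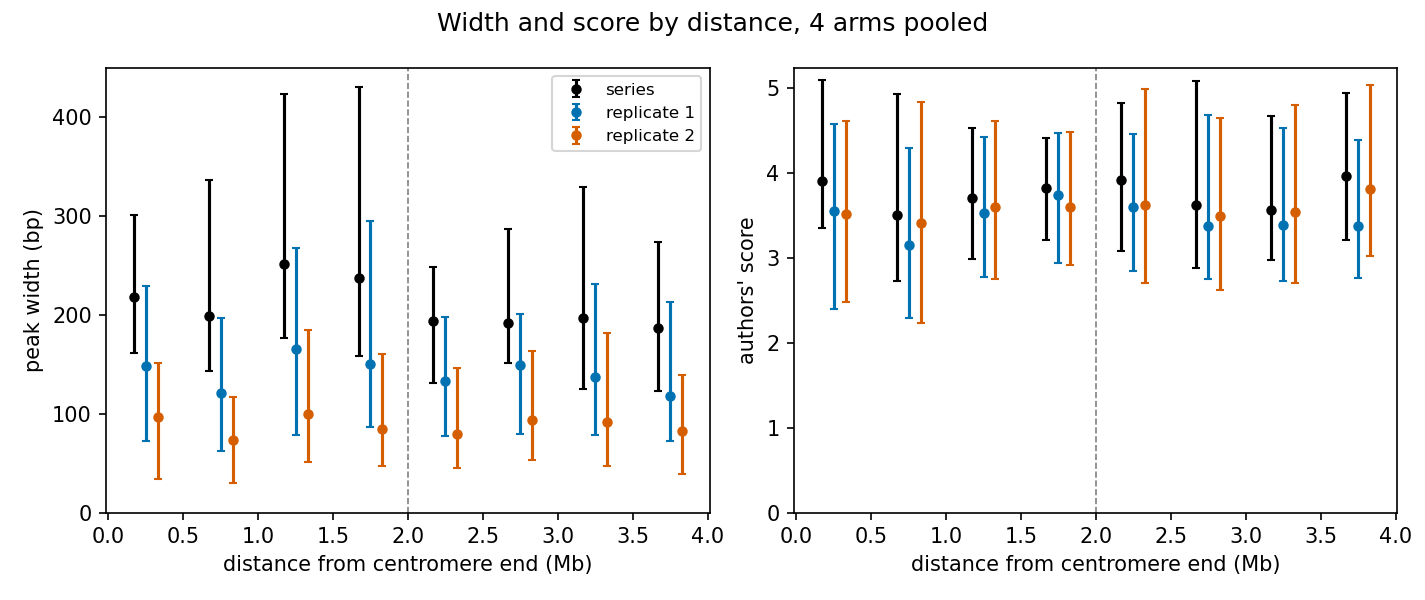
Median width (left, bp) and median score (right) of peaks in 500 kb bins by distance from the centromere end (x axis, Mb), 4 arms pooled, in the shared list (labelled series) and both replicates. Bars span the interquartile range and the dashed line marks 2 Mb; the ranges of neighbouring bins overlap throughout.

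Although typical scores were alike, a few members stood far above the rest. A score over 10, a level chosen after the values were seen, was reached by 6 of 229 members (2.62%, interval 0.967 to 5.62) and by 0.955% of the remaining sites. In replicate 1 the shares were 1.94% (0.840 to 3.78) in the windows and 0.998% in the remainder. In replicate 2 they were 3.49% (1.82 to 6.01) and 2.01%. The interval of the windows thus covered the remainder's share in each replicate. On 2L the highest member of the shared list was MCM_1012 at 22690958 to 22691112, which scored 13.0, with 11.2 in replicate 1 and 14.7 in replicate 2. It lay 312 kb from the end of the arm, and the nearest other shared site was 184 kb away. On 3L the highest was MCM_3205 at 24529171 to 24529328, which scored 14.5, with 16.8 in replicate 1 and 12.1 in replicate 2. It lay 1.29 kb from the end of the listed sequence. Both thus border empty stretches over 100 kb and were high in both replicates.

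On 3R, 3 members scored over 10, and their nearest shared sites were 16.2 to 39.0 kb away, against a median of 5.35 kb for 3R members. MCM_3282 at 1264597 to 1264780 scored 12.8, with 14.8 in replicate 1 and 10.8 in replicate 2. MCM_3276 at 1124846 to 1124972 scored 12.0, with 11.6 and 12.3. The other 3R member over 10, MCM_3266, scored 11.1. On X, the site MCM_5713 (21834808 to 21835095) scored 9.34 in replicate 1 and 140.8 in replicate 2, 15.1 times as high, so its place at the top of the shared list rests on replicate 2. It lies at the inner edge of the 589 kb empty stretch. The member next highest on X, MCM_5675 at 20631387 to 20631756, scored 7.27, with 6.58 and 7.96. On 2L and 3L the next highest were MCM_1010 at 22471748 to 22471967, which scored 7.14, and MCM_3192 at 22871780 to 22872007, which scored 6.86.

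The widest members were not the highest-scoring ones. MCM_990 on 2L (21828068 to 21829191) was 1124 bp wide and scored 3.76. MCM_3197 on 3L (22941044 to 22942090) was 1047 bp wide and scored 4.02. MCM_3240 on 3R (278938 to 279708) was 771 bp wide and scored 2.94, and MCM_5685 on X (20929817 to 20930534) was 718 bp wide and scored 2.49. These scores lay near or below the median, and MCM_5685 belongs to a dense run on X.

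On 3L and X the end of the listed sequence is itself the end of a shared site. The innermost member of 3L was MCM_3206 at 24530420 to 24530536, which scored 5.35, and that of X was MCM_5722 at 22415004 to 22415375, which scored 4.49. Because the last peak end sets the end of these arms, their distances of 0.058 and 0.186 kb follow from that choice. These distances do not show how near the members lie to the true end of the arm. The innermost member of 2L, MCM_1016 at 22962060 to 22962162, lay 41.4 kb from the end and scored 3.59. Its replicate 2 peak was 2 bp wide. The innermost member of 3R, MCM_3221 at 22788 to 23149, lay 23.0 kb from position 1 and scored 3.47.

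At the limits of the rule, scores on either side ran from 2.86 to 5.47. The outermost members scored 5.47 on 2L (MCM_961), 3.38 on 3L (MCM_3180), 5.39 on 3R (MCM_3315) and 3.70 on X (MCM_5672). The nearest sites outside scored 2.86 on 2L (MCM_960), 5.15 on 3L (MCM_3179), 3.0 on 3R (MCM_3316) and 3.72 on X (MCM_5671). On 3L these neighbours lay 1820.2 and 2249 kb from the end, and on X they lay 1888.2 and 2019 kb from it. An empty stretch over 100 kb thus crosses the limit on both arms. Such crossing stretches are in neither the window nor the remainder shares of empty sequence given above.

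Over the 4 arms together, a smaller share of peaks was found in the other replicate in the windows than in the remainder. The difference was a few percentage points in both directions, and for replicate 2 it did not hold on 3R or X. A peak counted as found when it shared at least 1 bp with a peak of the other list. This held for 229 of the 413 replicate 1 peaks in the windows (55.4%, interval 50.5 to 60.3) and for 61.0% (59.9 to 62.2) in the remainder. From the side of replicate 2 it held for 240 of 344 peaks (69.8%, 64.6 to 74.6) and for 73.5% (72.3 to 74.6) in the remainder. The replicate 1 interval of the windows lay below the remainder's share but touched its interval, and the replicate 2 interval covered the remainder's share. Without 3L the replicate 2 share in the windows was 75.1%, above the 73.5% of the remainder of all 4 arms. The pooled share in the remainder without 3L was not computed. By arm, the replicate 2 share of the window was above the remainder's on 3R (77.2 against 75.9%) and X (68.4 against 65.4%). On 2L it was below (78.7 against 81.6%), so outside 3L the lower share of replicate 2 was seen on 2L only. Each of these window intervals covered the remainder's share. By distance, the share of replicate 1 peaks found was 50.7, 48.5, 59.3 and 60.6% in the 4 bins from the end outward. For replicate 2 it was 56.3, 69.4, 77.3 and 71.1%. In both directions the inner 2 bins were below the outer 2, but not on every arm. With each window split at 1 Mb, the inner share was the higher one on 3R in replicate 1 (61.3 against 59.0%). It was also higher on X in replicate 2 (71.4 against 67.7%), and lower in every other case.

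The largest gap between window and remainder was that of replicate 2 on 3L. There 29 of 63 replicate 2 peaks (46.0%, interval 33.4 to 59.1) were found in replicate 1, against 72.5% (70.2 to 74.8) in the rest of 3L. In the inner 1 Mb of 3L it was 4 of 25 (16.0%, 4.54 to 36.1). The other 21 peaks had a median score of 2.24 and a median width of 41 bp, and over the 3L window 44.4% of replicate 2 peaks were under 50 bp wide, against 27.1% in the remainder. On the other arms the replicate 2 shares were 78.7% on 2L, 77.2% on 3R and 68.4% on X, and their remainders were 81.6%, 75.9% and 65.4%. For replicate 1, the inner 1 Mb of X stood out with 10 of 32 found (31.3%, 16.1 to 50), against 66.1% in the outer 1 Mb.

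**Figure D5:**
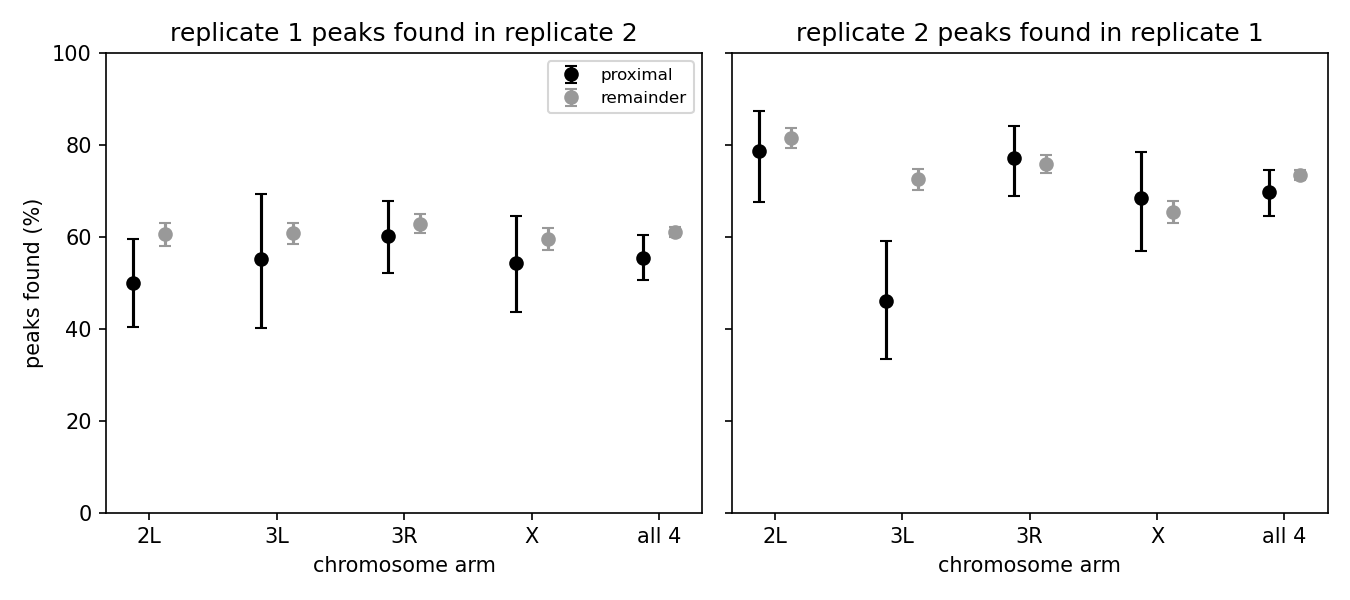
Share of peaks (y axis, %) that overlapped a peak of the other replicate, for each arm and all 4 together, in the windows (black) and the remainder (grey), with exact 95% binomial intervals. The 3L window in the right panel, at 46.0%, is the point whose interval lies farthest below its remainder.

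Peaks found in both replicates were wider than those found in 1 replicate. In the windows, replicate 1 peaks that were found had a median width of 226 bp and those not found 78 bp. For replicate 2 these widths were 117 and 40.5 bp. Width moved with the share found in the remainder too. When peaks were divided by width into 4 classes, a division chosen after the values were seen, the intervals of window and remainder were apart in 1 class of replicate 1 and in none of replicate 2. That class was the replicate 1 peaks from 50 to 99 bp wide, of which 16.4% (interval 8.15 to 28.1) were found, against 33.8% (31.3 to 36.3) in the remainder. At 200 bp and over it was 89.7% against 91.3%. For replicate 2 peaks at 200 bp and over it was 93.9% against 93.3%.

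Where both replicates had a site, they scored it alike. Of the 229 members, 218 consisted of 1 peak from each replicate. The median log2 ratio of the replicate 2 to the replicate 1 score was 0.03 (interquartile range -0.23 to 0.22), against 0.04 in the remainder. The scores were within 1.5-fold of each other at 204 members (93.6%), against 92.2% in the remainder, and 2 members differed by more than 2-fold. By arm the median log2 ratios were 0.05 on 2L, 0.05 on 3L, 0.02 on 3R and -0.12 on X, so replicate 1 scored the typical X member slightly higher even though MCM_5713 leaned far the other way. Spearman's rho between the replicate scores was 0.806 across the 218 members and 0.788 across the remainder, with no p because neighbouring peaks share libraries. Replicate 1 had the wider peak at 177 of the 218 members (81.2%), against 79.1% in the remainder.

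The highest peak of each replicate in the windows was not shared. MCM_R2_8425 at X 21802330 to 21804190, 1861 bp wide, scored 1430.4 in replicate 2, and no replicate 1 peak overlapped it. It lies in the 589 kb stretch, 612 kb from the centromere end, where MCM_5713 lies at 580.4 kb. On 3L, MCM_R2_4378 at 24020615 to 24020644 scored 150.0 in replicate 2 and had no overlapping replicate 1 peak. On 2L the peak that sets the end of the listed sequence, MCM_R2_1296 at 23003425 to 23003517, scored 28.0 and was likewise found in replicate 2 alone. Of replicate 1, MCM_R1_5377 at 3L 23119066 to 23119116 scored 17.9 without a match. MCM_R1_5433 at 3R 13039 to 13065 scored 14.4, and the nearest replicate 2 peak, at 13200 to 13236, scored 6.91 without overlapping it. Of the peaks scoring over 10 in the windows, 5 of 8 in replicate 1 (62.5%, interval 24.5 to 91.5) and 5 of 12 in replicate 2 (41.7%, 15.2 to 72.3) were found in the other list. In the remainder these shares were 45.1% of 71 and 54.9% of 122, both inside the wide intervals of the windows.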

How the data were processed

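Per the labels' protocols, DNA from cross-linked chromatin went into size-selected Illumina libraries, which a Genome Analyzer II read from 1 end. The authors' lists name PeakSeq as caller, and the deposited positions are those of FlyBase 5.1, per the file headers. Not given in the sources used here are the caller's version and settings, the aligner and the control. In each list the score is the authors' own value, deposited without a named unit, and was compared within a list, or between replicates on the assumption that both lists share a scale. The 2 immunoprecipitations formed 1 group and the input had no list analysed here. The members and the lists were chosen with earlier results of these data known.

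Peak centres are the mean of start and end, rounded down, and positions are 1-based. Density, spacing between consecutive centres, width, score and overlap of at least 1 bp were computed for the windows and the remainder of the same 4 arms, in the shared list and each replicate list. The mean and SD over replicates use n = 2. Sites were named by a rule: per arm the 2 highest-scoring members, the widest, the innermost, those on either side of the limit, and the 2 longest stretches without a site; other named peaks were chosen after their values were seen. Alternatives were each replicate alone, windows of 1 and 3 Mb, each arm left out, peaks of at least 50 bp, the higher-scoring 50%, joining within 1 kb, other reference windows, covered bases, other bins and other overlap rules. Genes and sequence were not analysed here, because the annotation in hand is of another build. The code was checked on simulated data. Scripts ran in Python 3.11.15 with matplotlib 3.10.9, pandas 2.3.3, SciPy 1.17.1 and NumPy 2.4.6.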

Additional observations from a re-analysis of the deposited data

How the results depend on the processing

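Depth is unknown, the replicates may be technical, and the 4 windows are few, so these ranges are descriptive. The pooled density ratio, 0.595, was below 1 under each of its 14 alternatives: 0.634 to 0.647 in 1 replicate alone, 0.455 with 1 Mb windows, 0.685 with 3 Mb, 0.697 without 3L, 0.470 without 3R, 0.621 without X, 0.585 for the higher-scoring 50%, and 0.636 and 0.541 against the adjacent and telomere-end windows. The ratio of inner to outer bin, 0.571, was 0.660 to 0.683 in 1 replicate alone, 0.601 with 1 Mb bins, 0.721 without 2L, 0.773 without 3L and 0.245 without 3R, and turned to 1.08 with 250 kb bins. Median spacing, 8.96 kb, was 4.82 to 5.96 kb in 1 replicate alone, 11.6 kb with 1 Mb windows, 5.67 kb without 3R (7.41 kb in that remainder), 10.5 kb without X, 26.7 kb for the higher-scoring 50% and 13.8 kb after joining. The difference in median width, 32 bp, was -5 to 11 bp in 1 replicate alone, 0.5 bp with 1 Mb windows, -1 bp with 3 Mb, 46 bp without 3R, 57 bp after joining, and 46 and 19 bp against the adjacent and telomere-end windows. The difference in median score, -0.043, had no stable sign: it was -0.039 to -0.024 in 1 replicate alone, -0.105 with 1 Mb windows, -0.063 with 3 Mb, -0.061 without 2L, -0.109 without 3L, -0.0097 without 3R, 0.026 without X, -0.063 for peaks of at least 50 bp, -0.0083 for the higher-scoring 50%, 0.016 after joining, and -0.093 and 0.153 against the adjacent and telomere-end windows. The share of replicate 1 peaks found, 55.4%, was 61.5% with centres within 500 bp and 49.4% with 1 Mb windows, and that of replicate 2, 69.8%, was 76.5% and 63.2%, 80.2% for peaks of at least 50 bp and 75.1% without 3L. The other 30 of 80 alternatives moved a value by less than the spread between replicates or, for shares, within the interval. The causes were not tested. No paired analysis was possible because there was 1 group and no test.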

Other observations

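Identical scores recurred among peaks of 1 list. In the windows 43.1% of the 413 replicate 1 peaks (interval 38.3 to 48.0) carried a score that another peak of that list also carried, against 45.9% in the remainder. In replicate 2 the share was 39.8% of 344 peaks (34.6 to 45.2) against 39.3%. The score 3.24278 stood at 4 replicate 1 peaks in the windows, whose widths ran from 77 to 266 bp.

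Peaks listed in 1 replicate alone lay farther, by median distance, from a peak of the other list in the windows than in the remainder. Peaks are also denser in the remainder of the arms. In the windows replicate 1 had 184 such peaks, of which 38 lay within 500 bp of a replicate 2 peak, or 20.7% (interval 15.0 to 27.2) against 26.6% in the remainder. Their median distance to one was 3.23 kb against 1.87 kb. Replicate 2 had 104, of which 28 lay within 500 bp, or 26.9% (18.7 to 36.5) against 35.7%, with a median distance of 2.40 kb against 0.966 kb. In both replicates the interval of the windows covered the remainder's share within 500 bp. On 3L the 34 replicate 2 peaks without a match lay farther off, at a median of 17.8 kb from the nearest replicate 1 peak, against 0.954 kb in the remainder of 3L.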
